A study of Arabidopsis thaliana with 3 samples.

Results

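Cytochrome P450 genes were followed in whole Arabidopsis thaliana seedlings of 2 mutants compared with the wild type Col-0. The genes were the rows of either deposited table whose gene description names a cytochrome P450 or carries a CYP name. A set of 8 genes of iron-deficiency coumarin, flavonoid, glucosinolate and jasmonate synthesis was left out by the rule, and 4 of these had a matching description. This gave 33 genes of the 2666 listed in either table. Of them, 11 were listed for pwo1 and 26 for crwn1 crwn2, with 4 in both tables, beside 508 of all 2666 genes in both. By the same words, RefSeq annotates 257 protein-coding genes as P450s, and all 33 genes were among them. Because the words are the same, this match cannot by itself exclude a partner protein. All but 1 of the 33 genes carry a CYP family name in RefSeq.

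Seedlings of Col-0, of pwo1 and of crwn1 crwn2 were harvested at 14 days, after 2 days of stratification and growth on upright MS plates in long days. PWO1 carries a PWWP domain and works with Polycomb repression, while the long coiled-coil CRWN proteins line the inside of the nuclear envelope. According to the series' design, 3 biological replicates of each genotype were sequenced, while the labels hold 1 sample each. The sources used here do not name the mutant alleles. All samples were whole seedlings, in which fewer cells of a type and less RNA per cell cannot be told apart. Whether the tissue label holds could not be checked, because the tables list changed genes and no levels.

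P450s are heme enzymes that insert oxygen into small molecules, with electrons passed on from NADPH by a reductase on the endoplasmic reticulum. Plants have very large P450 families. Some make or destroy hormones such as brassinosteroids, gibberellins and abscisic acid, some build lignin, cutin, waxes and sterols, and many make defence compounds. Family numbers group enzymes by sequence, so that CYP71B23 is a member of family 71, subfamily B. Subfamilies such as CYP71A and CYP71B have grown by tandem duplication, which leaves close copies side by side.

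Each value below is a log2 fold change of mutant over Col-0 by the authors' edgeR test, with the p-value of that test. A gene counted as changed where the authors list it. Each listed gene has values from both edgeR and Cuffdiff. Genes outside the lists were not analysed here, so absence from a table does not show that a gene was unchanged. The tables hold no level per sample, so the spread between replicates and the depth behind each value are unknown. As a stand-in for an error, a standard error was implied from each fold change and p-value under a normal approximation. It ranged from 0.14 to 0.66 over the 37 member values, with a median of 0.26. The headers name Col before the mutant, so the direction had to be settled from the mutated genes. In the authors' deposited table for crwn1 crwn2, CRWN1 was at -3.03 and CRWN2 at -2.42 (-1.57 by Cuffdiff), which sets that table's values as mutant over Col-0. PWO1 is not listed for pwo1, so directions in pwo1 rest on its header having the same wording. Both comparisons share the Col-0 samples, so their values are set side by side without a test between them.

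In crwn1 crwn2, 20 P450 genes rose and 6 fell. The genes with the highest fold changes were CYP76C5, CYP81D8, CYP71B23, CYP71B24 and the camalexin gene CYP71A13, followed by CYP707A2. Those that fell included the abscisic acid 8'-hydroxylase gene CYP707A3 and the brassinosteroid-inactivating gene BAS1. The share of risers was 76.9%, beside 56.5% of all 1935 genes listed for crwn1 crwn2, of which 43.5% were lower. An upper bound on the Benjamini-Hochberg adjusted edgeR p was under 0.05 for 25 of the 26 P450 genes, beside 82.8% of all listed genes. At least 2-fold changes were found in 17 of the 26 P450 genes, 14 up and 3 down, a share of 65.4% beside 40.4% of all listed genes. The median log2 fold change was 1.09 for the P450 genes and 0.53 for all listed genes in the authors' deposited table. Among genes that rose, those medians were 1.20 for the P450 genes and 1.01 for all listed genes in the authors' deposited table.

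In pwo1, 6 P450 genes rose and 5 fell, and the values ranged from -2.48 for CYP71A12 to 1.82 for CYP87A2 in the authors' deposited table. The share of risers was 54.5%, beside 42.5% of all 1239 genes listed for pwo1, while 57.5% of all listed genes were lower. The bound on the adjusted edgeR p was under 0.05 for 9 of the 11 P450 genes, beside 76.3% of all listed genes. At least 2-fold changes were found in 6 of the 11 P450 genes, 4 up and 2 down, a share of 54.5% beside 34.7% of all listed genes. The median absolute log2 fold change was 1.05 for the P450 genes and 0.83 for all listed genes in the authors' deposited table. With counts this small, the shares of risers and of 2-fold changes in pwo1 are a description of these 11 genes.

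The tables list 4.38% of the 27562 protein-coding genes of the reference for pwo1 and 6.91% for crwn1 crwn2. Of the 249 protein-coding P450 genes that the rule did not leave out, 14 were listed for pwo1 (5.62%) and 30 for crwn1 crwn2 (12%). These counts include P450 genes whose description text used here carries neither name, which are given at the end. The sources used here do not say how many P450 genes the authors tested. The reference holds 46 P450 families by number, and members came from 14 of them. Family 71 supplied 14 of the 33 members from 50 protein-coding genes, and no other family supplied more than 2.

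**Figure D1:**
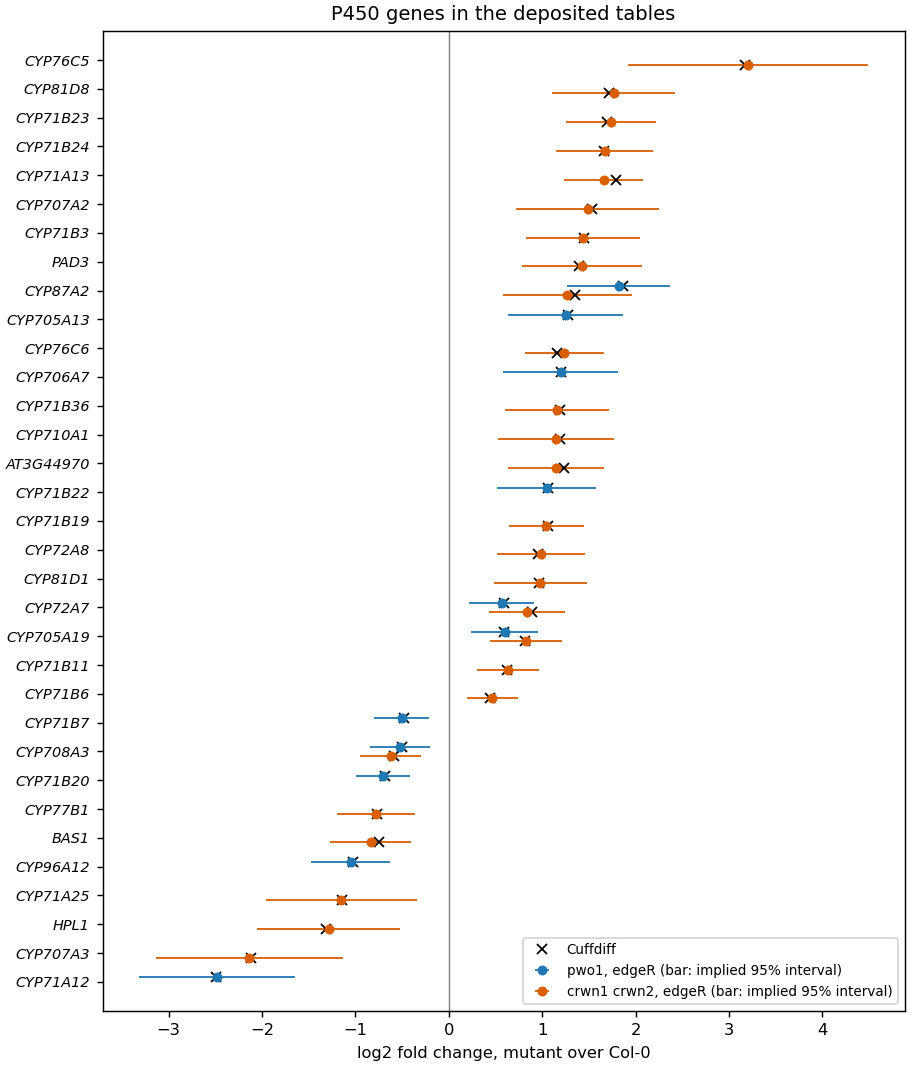
Log2 fold change of mutant over Col-0 (horizontal axis) for the 33 P450 genes (vertical axis). Circles are the authors' edgeR values for pwo1 (blue) and crwn1 crwn2 (orange), bars are 95% intervals implied from the edgeR p-values, and crosses are the authors' Cuffdiff values. Cuffdiff had the sign of edgeR in all 37 values, and CYP76C5 stood highest and CYP71A12 lowest.

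**Figure D2:**
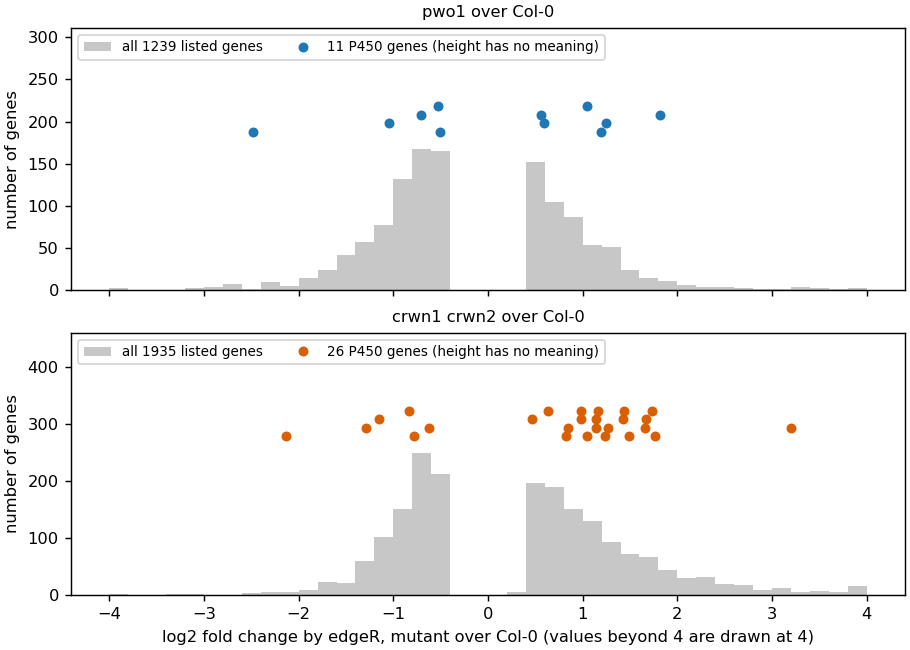
Number of genes (vertical axis) by log2 fold change of mutant over Col-0 (horizontal axis) in each deposited table. Grey bars are all listed genes and dots are the P450 genes, whose height has no meaning. In crwn1 crwn2, 20 of 26 dots lie on the side of higher expression, and in pwo1, 6 of 11.

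Subfamily CYP71B was the most represented, with 11 members out of 34 protein-coding genes of that name. Of these, 8 rose in crwn1 crwn2, while in pwo1 1 rose and 2 fell. The 8 values in crwn1 crwn2 lay between 0.46 and 1.73 with a median of 1.29 in the authors' deposited table. Most came from a block on chromosome 3, from AT3G26150 to AT3G26330, that holds 16 CYP71B genes and 4 other protein-coding genes over 83 kb. All but 1 of the CYP71B genes in the block lie on the minus strand. In the block, 5 CYP71B genes were listed for crwn1 crwn2 and 2 for pwo1, 9 were listed in neither table, and 0 of the 4 other genes were listed. Among the 249 P450 genes, 12% were listed for crwn1 crwn2 and 5.62% for pwo1. Among all protein-coding genes, the shares were 6.91% and 4.38%. With so few other genes, their absence does not set the CYP71B genes apart from them.

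The neighbouring trio CYP71B23 (AT3G26210), CYP71B3 (AT3G26220) and CYP71B24 (AT3G26230) rose together in crwn1 crwn2. The authors' deposited table gave CYP71B23 1.73 (implied SE 0.24, edgeR p = 1.23e-12), a 3.33-fold rise. For CYP71B3 it was 1.44 in the authors' deposited table (implied SE 0.31, edgeR p = 3.64e-06). CYP71B24 stood at 1.67 in the authors' deposited table (implied SE 0.26, edgeR p = 2.46e-10). The differences among the 3 values are within their implied errors. CYP71B3 and CYP71B24 lie 13 bases apart in the RefSeq annotation and share 87.3% of their coding bases, so some reads may fit either gene. The other risers of the block in crwn1 crwn2 were CYP71B19 (AT3G26170), with 1.04 in the authors' deposited table, and CYP71B36 (AT3G26320), with 1.16. No individual substrate is given for these enzymes in the tables.

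In the same block, CYP71B22 (AT3G26200) rose and CYP71B20 (AT3G26180) fell in pwo1. The authors' deposited table gave 1.05 for CYP71B22 (implied SE 0.27, edgeR p = 1.03e-04) and -0.71 for CYP71B20 (implied SE 0.15, edgeR p = 1.57e-06). CYP71B20 lies directly beside CYP71B19, the gene that rose in crwn1 crwn2, and the pair is the closest among all members, with 96.2% of 1509 coding bases identical and 58 differences. Reads that span no difference fit both genes. The following 60 bases of coding sequence, from coding base 19 to 78, hold 13 of these differences, which are in capitals. This stretch is rich in differences, so reads from it can be told apart more easily than reads from most of the coding sequence. The bases were read from the RefSeq annotation of build TAIR10.1.
CYP71B19: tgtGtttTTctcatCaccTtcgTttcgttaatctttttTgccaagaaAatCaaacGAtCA
CYP71B20: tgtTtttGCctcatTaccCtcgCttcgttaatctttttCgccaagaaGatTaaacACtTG
The sources used here do not say how reads that fit both genes were counted, so which copy changed in which mutant is uncertain.

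**Figure D3:**
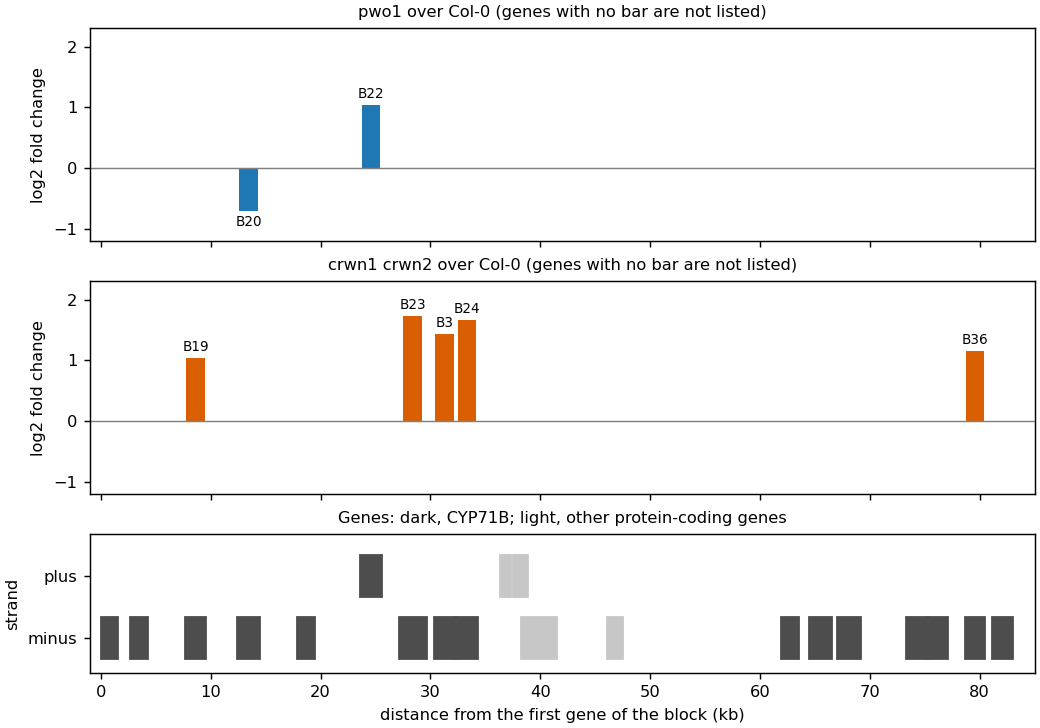
The CYP71B block of chromosome 3. The upper panels give the log2 fold change over Col-0 in pwo1 and in crwn1 crwn2 (authors' edgeR values), and the lower panel draws the genes by strand against distance from the first gene in kb. The trio CYP71B23, CYP71B3 and CYP71B24 stands between 1.44 and 1.73 in crwn1 crwn2, and CYP71B20 and CYP71B22 go opposite ways in pwo1.

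Outside the block, the CYP71B members were CYP71B11, CYP71B6 and PAD3 in crwn1 crwn2 and CYP71B7 in pwo1. CYP71B11 (AT5G25120) rose by 0.63 in crwn1 crwn2 in the authors' deposited table (edgeR p = 2.12e-04), and it shares 92.6% of its coding bases with CYP71B12. CYP71B7 (AT1G13110) was at -0.51 in pwo1 in the authors' deposited table (edgeR p = 7.57e-04).

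Camalexin is the main phytoalexin of Arabidopsis, an indole compound made from tryptophan. In crwn1 crwn2, 3 of 7 P450 genes of the camalexin and indole cyanide list rose and 0 fell. Of the 249 P450 genes, 12% were listed for crwn1 crwn2, as were 6.91% of all protein-coding genes. Among all genes listed for crwn1 crwn2, 56.5% were higher. The list was chosen with earlier results of these data known, so the count describes these genes and was not tested. CYP71A13 (AT2G30770), which turns indole acetaldoxime into indole acetonitrile, stood at 1.66 in the authors' deposited table (implied SE 0.22, edgeR p = 1.31e-14), a 3.16-fold rise. PAD3 (AT3G26830, also CYP71B15), the enzyme of the last step to camalexin, stood at 1.42 in the authors' deposited table (implied SE 0.33, edgeR p = 1.36e-05). CYP71B6 (AT2G24180), which turns indole acetonitrile toward indole carboxylic acid, rose less, by 0.46 in the authors' deposited table (implied SE 0.14, edgeR p = 8.87e-04). CYP71A13 and CYP71B6 each overlap another annotated gene, and their values are uncertain.

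Of the partner genes of that list, 3 of 7 rose in crwn1 crwn2 and 0 fell, beside 6.91% of all protein-coding genes listed. The glutathione transferase gene GSTF6, which supplies the glutathione conjugate of the pathway, was at 2.43 in the authors' deposited table (edgeR p = 7.27e-19), a value that reads of its close copy GSTF7 may share. GSTU4, another glutathione transferase gene, was at 1.22 (edgeR p = 0.00314) and the tryptophan synthase gene TSA1 at 0.86 (edgeR p = 9.83e-06) in the authors' deposited table. For GSTU4, the bound on the adjusted edgeR p was 0.069. Of the other P450 genes on the list, CYP79B2, CYP71A12, CYP82C2 and CYP71A18 were not listed for crwn1 crwn2.

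In pwo1, CYP71A12 (AT2G30750), a copy of CYP71A13 with the same reaction, had the largest change of the P450 genes listed for pwo1. It fell, with -2.48 in the authors' deposited table (implied SE 0.43, edgeR p = 6.13e-09), a 5.59-fold lower value, and -2.49 by Cuffdiff. It was the 1 gene listed for pwo1 among the 7 P450 genes of the camalexin list, and 0 of the 7 partner genes were listed. Of the 249 P450 genes, 5.62% were listed for pwo1, as were 4.38% of all protein-coding genes. CYP71A12 and CYP71A13 lie on the minus strand of chromosome 2 with 2 protein-coding genes between them. They share 90.4% of 1494 coding bases, with 144 differences, so some reads may fit either gene. The sources used here do not say how such reads were counted. The 60 coding bases that hold the most differences, 15 in capitals, run from coding base 669 to 728 and are shown to let the copies be told apart.
CYP71A12: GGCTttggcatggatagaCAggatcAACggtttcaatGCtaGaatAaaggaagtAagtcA
CYP71A13: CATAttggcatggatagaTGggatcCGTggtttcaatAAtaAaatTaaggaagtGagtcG

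The 250 bases before the annotated gene starts of this pair are printed because the copies were listed in different mutants. Their upstream regions are less alike than their coding regions, with 74.6% of 240 aligned bases identical. Neither trait is particular to this pair. CYP71B19 and CYP71B20 were also listed in different mutants, with 78.4% upstream and 96.2% coding identity. Upstream identity was also the lower for CYP71B3 with CYP71B24 (69.9%) and CYP76C6 with CYP76C5 (61.7%). Capitals mark the WRKY-binding core TTGAC and its reverse complement GTCAA. CYP71A12 has 2 such cores, whose first bases lie 233 and 102 bases before the start, and CYP71A13 has 2, at 144 and 128. The windows are chr2:13101372-13101621 for CYP71A12 and chr2:13111989-13112238 for CYP71A13, both on the minus strand of RefSeq's TAIR10.1 and written 5′ to 3′.
CYP71A12: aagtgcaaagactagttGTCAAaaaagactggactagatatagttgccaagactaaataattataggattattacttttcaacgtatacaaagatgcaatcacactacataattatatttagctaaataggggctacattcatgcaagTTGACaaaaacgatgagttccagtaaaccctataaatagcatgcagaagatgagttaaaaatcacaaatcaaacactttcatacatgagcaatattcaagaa
CYP71A13: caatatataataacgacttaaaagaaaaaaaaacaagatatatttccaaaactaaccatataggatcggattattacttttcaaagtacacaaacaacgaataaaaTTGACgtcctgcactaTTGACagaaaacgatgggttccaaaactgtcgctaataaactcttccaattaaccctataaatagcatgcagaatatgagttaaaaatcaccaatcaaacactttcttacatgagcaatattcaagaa

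The same window is given for 2 risers of the chromosome 3 block, chr3:9595284-9595533 for CYP71B23 and chr3:9599989-9600238 for CYP71B24, again on the minus strand of TAIR10.1 with TTGAC and GTCAA in capitals. CYP71B23 holds 1 core, at 149 bases before the start, and CYP71B24 holds 3, at 245, 78 and 24.
CYP71B23: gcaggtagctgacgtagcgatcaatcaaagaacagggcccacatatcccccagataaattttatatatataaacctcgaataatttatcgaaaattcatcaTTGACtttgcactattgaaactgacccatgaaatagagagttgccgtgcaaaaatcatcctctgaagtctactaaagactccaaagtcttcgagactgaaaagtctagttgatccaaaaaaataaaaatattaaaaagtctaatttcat
CYP71B24: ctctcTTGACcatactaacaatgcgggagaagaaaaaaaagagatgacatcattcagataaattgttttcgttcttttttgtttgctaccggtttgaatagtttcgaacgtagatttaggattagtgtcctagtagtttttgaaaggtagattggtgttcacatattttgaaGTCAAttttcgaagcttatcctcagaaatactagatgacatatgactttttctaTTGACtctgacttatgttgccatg
TTGAC on either strand was found within 250 bases upstream of 13 of the 20 P450 genes that rose in crwn1 crwn2 (65.0%) and of 4 of the 6 that fell (66.7%). The shares were 57.6% for all genes that rose in crwn1 crwn2, 40.8% for all that fell, 50.2% for the 249 P450 genes and 44.9% for 27443 protein-coding genes. In pwo1, it was found for 4 of the 6 P450 genes that rose and 3 of the 5 that fell, beside 49.9% and 43.2% of all listed genes of these directions. PAD3, CYP71B19 and CYP71B36 hold no TTGAC in this window. The G-box CACGTG was found for 3 of the 33 members, CYP71B22, CYP81D8 and CYP707A3, beside 6.49% of all protein-coding genes.

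The third CYP71A member, CYP71A25 (AT3G48280), was at -1.15 in crwn1 crwn2 in the authors' deposited table (implied SE 0.41, edgeR p = 0.00514, Cuffdiff p = 0.0073). It had the weakest support of the members, and its bound on the adjusted p was 0.10.

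The largest rise of any P450 gene was that of CYP76C5 (AT1G33730) in crwn1 crwn2. Subfamily CYP76C includes enzymes that oxidise monoterpene alcohols such as linalool. CYP76C5 stood at 3.21 in the authors' deposited table (implied SE 0.66, edgeR p = 1.02e-06), a 9.22-fold rise with the widest error of the members. Its direct neighbour CYP76C6 (AT1G33720) stood at 1.24 in the authors' deposited table (implied SE 0.22, edgeR p = 1.04e-08). The annotated coding sequence of CYP76C5, with 1107 bases, is the shortest among the members and shares 92.3% of its bases with that of CYP76C6, so reads of the pair may be mixed. The genes face away from each other, with 2743 bases between them. CYP76C1, CYP76C2 and CYP76C3, on the terpene list, were not listed in either table.

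Neighbouring genes of subfamily CYP72A both rose. CYP72A7 (AT3G14610) and CYP72A8 (AT3G14620) lie 116 bases apart on chromosome 3. In crwn1 crwn2, CYP72A7 was at 0.84 (edgeR p = 5.11e-05) and CYP72A8 at 0.99 (edgeR p = 4.08e-05) in the authors' deposited table. Across the whole set, 12 of the 33 members lay at most 2 protein-coding genes from another member, and 10 lay directly beside one. These counts pool both mutants, and the neighbours CYP71B19 and CYP71B20 were listed in different ones. No matching share was computed for all P450 genes, whose subfamilies hold tandem copies.

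Both listed members of subfamily CYP81D rose in crwn1 crwn2. CYP81D8 (AT4G37370), a gene known to respond to foreign chemicals and many stresses, stood at 1.76 in the authors' deposited table (implied SE 0.34, edgeR p = 1.54e-07), a 3.40-fold rise. CYP81D1 (AT5G36220) stood at 0.98 in the authors' deposited table (implied SE 0.26, edgeR p = 1.25e-04). The CYP81F genes that modify indole glucosinolates, 4 in the list, were listed in neither table, a number too small to set them apart from other P450 genes. Of the 4 partner genes of that list, the methyltransferase gene IGMT2 was at 1.84 in crwn1 crwn2 and IGMT1 at 0.50 in pwo1 in the authors' deposited tables, and these close copies may share reads. For IGMT1 in pwo1, the bound on the adjusted edgeR p was 0.096.

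Among hormone genes, the abscisic acid 8'-hydroxylases of family 707, which start the breakdown of the hormone, went both ways in crwn1 crwn2. CYP707A2 (AT2G29090), known for its part in seed imbibition, stood at 1.49 in the authors' deposited table (implied SE 0.39, edgeR p = 1.41e-04), a 2.80-fold rise. CYP707A3 (AT5G45340), which acts in vegetative tissue, stood at -2.14 in the authors' deposited table (implied SE 0.51, edgeR p = 2.77e-05), a 4.40-fold fall. CYP707A1 and CYP707A4 were not listed. On the synthesis side, 2 of 9 partner genes were listed, beside 6.91% of all protein-coding genes. NCED3, which makes the xanthoxin precursor of the hormone, was at -1.63 (edgeR p = 5.93e-09) and the aldehyde oxidase gene AAO3, of the last step, at 0.64 (edgeR p = 9.02e-04) in the authors' deposited table. AAO3 overlaps another annotated gene. No gene of the abscisic acid list, P450 or partner, was listed for pwo1.

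BAS1 (AT2G26710, CYP734A1), which inactivates brassinosteroids by hydroxylation, fell in crwn1 crwn2, with -0.84 in the authors' deposited table (implied SE 0.22, edgeR p = 1.64e-04) and -0.75 by Cuffdiff. Its relative SOB7 was not listed. The brassinosteroid synthesis gene CPD (AT5G05690, CYP90A1), a P450 outside the description match, was at -0.54 in pwo1 (edgeR p = 2.04e-04) and -0.46 in crwn1 crwn2 (edgeR p = 0.00545) in the authors' deposited tables. DWF1, a sterol reductase gene of the same pathway, was at -0.48 in crwn1 crwn2 in the authors' deposited table, with an edgeR p of 0.00247. In crwn1 crwn2, the bound on the adjusted edgeR p was 0.11 for CPD and 0.057 for DWF1. CPD and DWF1 overlap other annotated genes. The other 5 P450 genes of brassinosteroid synthesis were not listed.

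The 5 P450 genes of gibberellin metabolism, the 2 cytokinin hydroxylase genes and the 4 CYP94 genes of jasmonoyl-isoleucine oxidation were listed in neither table. Of the 249 P450 genes, 12% were listed for crwn1 crwn2 and 5.62% for pwo1. With so few genes per list, their absence does not set these lists apart. Partner genes in these lists were few. The cytokinin synthesis genes IPT3 and IPT5 were at 0.94 and 1.09 in pwo1 and IPT3 at 1.05 in crwn1 crwn2 in the authors' deposited tables. The kaurene synthase gene KS, which overlaps another annotated gene, was at -0.94 and the gibberellin oxidase gene GA2OX6 at 0.75 in crwn1 crwn2 in the authors' deposited table. For GA2OX6, the bound on the adjusted edgeR p was 0.091. ILL6, an amidohydrolase gene of jasmonoyl-isoleucine turnover, was at -0.59 in pwo1 in the authors' deposited table.

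Lipid and sterol enzymes were represented by single genes. CYP710A1 (AT2G34500), the desaturase that makes stigmasterol from sitosterol, rose in crwn1 crwn2, with 1.15 in the authors' deposited table (implied SE 0.32, edgeR p = 3.15e-04), and the other 4 P450 genes of the sterol list were not listed. HPL1 (AT4G15440, CYP74B2), a hydroperoxide lyase gene of green leaf volatile synthesis, fell in crwn1 crwn2, with -1.29 in the authors' deposited table (implied SE 0.39, edgeR p = 9.35e-04). The description in the tables says that a deletion in Columbia leaves this lyase without function, so the value concerns a transcript of a truncated protein. CYP77B1 (AT1G11600) was at -0.78 in crwn1 crwn2 in the authors' deposited table (implied SE 0.21, edgeR p = 2.31e-04), in a family whose CYP77A members act in cutin synthesis. CYP96A12 (AT4G39510), of the family of the wax alkane hydroxylase MAH1, was at -1.05 in pwo1 in the authors' deposited table (implied SE 0.21, edgeR p = 1.03e-06). The 11 P450 genes on the cutin, suberin and wax list were listed in neither table. Of the 249 P450 genes, 12% were listed for crwn1 crwn2 and 5.62% for pwo1, so this absence does not set the list apart. Among its 9 partners, the acyltransferase gene GPAT8 was at -0.63 in crwn1 crwn2 in the authors' deposited table.

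The genes listed for both mutants were CYP87A2, CYP72A7, CYP705A19 and CYP708A3. CYP87A2 (AT1G12740), the single gene of family 87 in the reference, stood at 1.82 in pwo1 (implied SE 0.28, edgeR p = 1.09e-10) and 1.27 in crwn1 crwn2 (implied SE 0.35, edgeR p = 2.92e-04) in the authors' deposited tables. CYP72A7 was at 0.56 in pwo1 in the authors' deposited table (edgeR p = 0.00147), with its value in crwn1 crwn2 given above. CYP705A19 (AT3G20100), of a family with members in triterpene metabolism, was at 0.60 in pwo1 (edgeR p = 0.00111) and 0.83 in crwn1 crwn2 (edgeR p = 2.74e-05) in the authors' deposited tables. CYP708A3 (AT1G78490), a relative of the thalianol hydroxylase CYP708A2, was at -0.53 in pwo1 (edgeR p = 0.00151) and -0.62 in crwn1 crwn2 (edgeR p = 1.90e-04) in the authors' deposited tables. In pwo1, the bound on the adjusted p was 0.057 for CYP72A7 and 0.058 for CYP708A3, so neither is shown to pass 0.05 there. With p under 0.001 required in both tools, CYP72A7, CYP705A19 and CYP708A3 dropped out of pwo1, which left CYP87A2 alone in both mutants.

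The remaining members in pwo1 were CYP705A13 (AT2G14100), at 1.25 (implied SE 0.31, edgeR p = 6.98e-05), and CYP706A7 (AT4G12330), at 1.20 (implied SE 0.31, edgeR p = 1.40e-04), in the authors' deposited table. AT3G44970, a P450 gene with no CYP name in the reference, was at 1.14 in crwn1 crwn2 in the authors' deposited table (implied SE 0.26, edgeR p = 1.31e-05). Its closest P450 by coding sequence was the thalianol hydroxylase gene CYP708A2, with 73.6% of aligned bases identical.

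Besides CPD, 4 P450 genes of the reference were listed whose description text used here carries neither name. The ferulate 5-hydroxylase gene FAH1 (AT4G36220, CYP84A1), which leads to syringyl lignin and sinapate esters, was at -0.75 in pwo1 in the authors' deposited table, with an edgeR p of 4.81e-06. The carotenoid hydroxylase gene CYP97A3 (AT1G31800) was at 0.61 in pwo1 and 0.47 in crwn1 crwn2 in the authors' deposited tables, and its non-P450 counterpart BCH1 at 0.78 and 1.09. The bound on the adjusted edgeR p was 0.058 for CYP97A3 in crwn1 crwn2 and 0.061 for BCH1 in pwo1. The strigolactone gene MAX1 (AT2G26170, CYP711A1) was at 0.57 in crwn1 crwn2 in the authors' deposited table (edgeR p = 0.00124), and AT5G19060 at -1.02 (edgeR p = 0.00443). For AT5G19060, the bound on the adjusted edgeR p was 0.092. CYP97A3 and MAX1 overlap other annotated genes.

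Across the 18 pathway lists, 12 of 81 P450 genes were listed for crwn1 crwn2, 7 higher and 5 lower, and 5 for pwo1, 1 higher and 4 lower. Of 100 partner genes, 18 were listed for crwn1 crwn2, 14 higher and 4 lower, and 7 for pwo1, 6 higher and 1 lower. Among all protein-coding genes, 6.91% were listed for crwn1 crwn2 and 4.38% for pwo1. Of all listed genes, 56.5% were higher in crwn1 crwn2 and 42.5% in pwo1. The phenylpropanoid list held 5 of 13 partners for crwn1 crwn2, all higher, while its 6 P450 genes, among them the cinnamate hydroxylase gene C4H, were not listed for crwn1 crwn2. The phenylalanine ammonia-lyase gene PAL1, of the entry step, was at 1.04, the methyltransferase gene COMT1 at 0.55 and the ligase gene 4CL3 at 1.16 in crwn1 crwn2 in the authors' deposited table. The alcohol dehydrogenase gene CAD4 was at 0.92 in crwn1 crwn2 and 0.49 in pwo1, and 4CL3 at 0.81 in pwo1, in the authors' deposited tables. For CAD4 in pwo1, the bound on the adjusted edgeR p was 0.097. The P450 reductase genes ATR1 and ATR2 were not listed in either table. NYE1, of chlorophyll breakdown, was at 0.51 in crwn1 crwn2 in the authors' deposited table, with a bound on the adjusted edgeR p of 0.063.

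**Figure D4:**
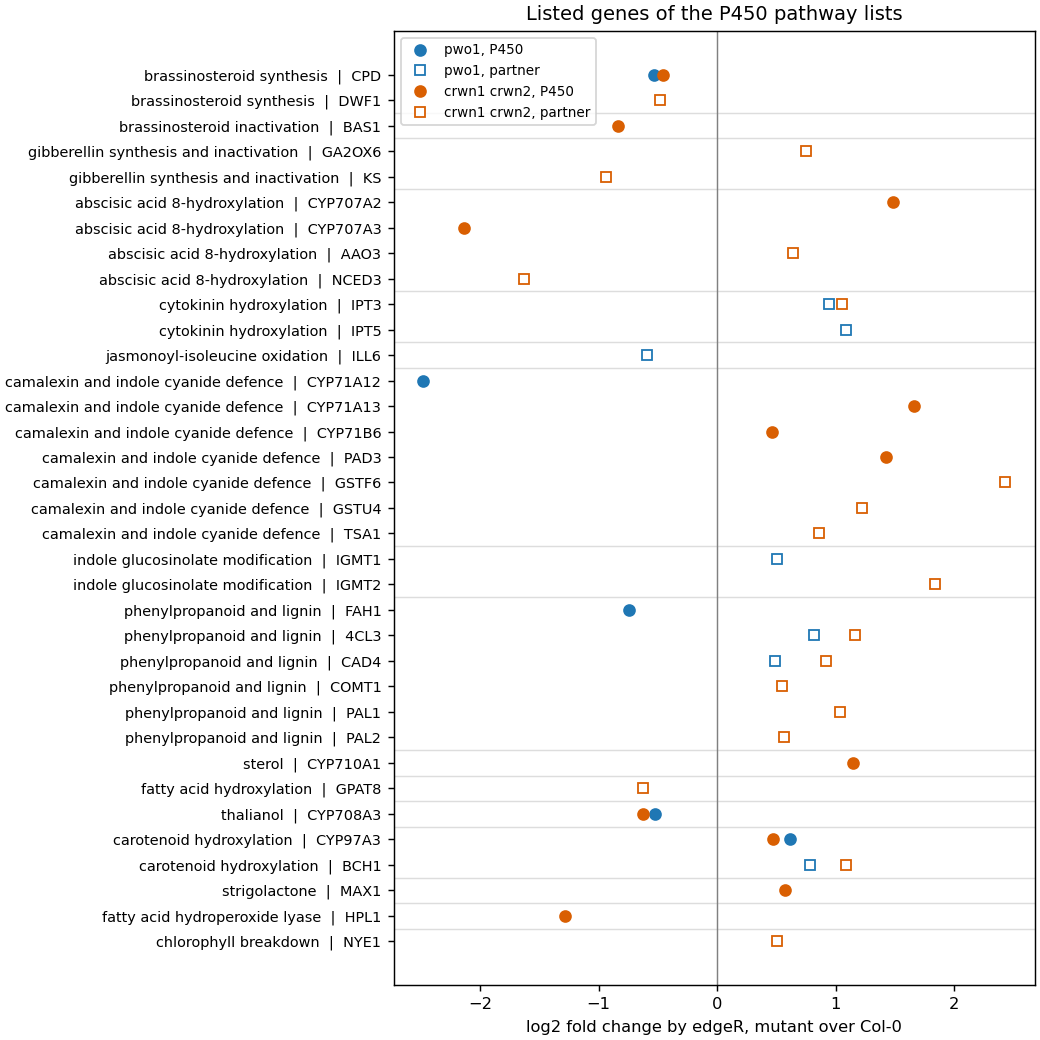
Log2 fold change over Col-0 by the authors' edgeR test (horizontal axis) for the listed genes of the pathway lists (vertical axis). Filled circles are P450 genes and open squares partner genes, for pwo1 (blue) and crwn1 crwn2 (orange). The 6 listed camalexin genes of crwn1 crwn2 lie to the right of 0, as do 56.5% of all genes listed for crwn1 crwn2. CYP71A12 in pwo1 lies to the left, and CYP707A2 and CYP707A3 lie on opposite sides.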

How the data were processed

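RNA-seq of whole seedlings was deposited as 2 tables of the authors' comparisons, 1 per mutant. Per the file headers, each gene has the authors' log2 fold changes and p-values, 1 pair by edgeR and 1 pair by Cuffdiff. The submitters' processing notes of the authors name edgeR 3.3, Cuffdiff 2.2.1, Cufflinks 2, HTSeq 0.6.1, TopHat2 2.0.12, FastQC 0.10, Trimmomatic 0.35 and build TAIR10. The sources used here give no normalization, filter or listing threshold. The authors' largest edgeR p was 0.00386 for pwo1 and 0.00585 for crwn1 crwn2, and the p-values appear unadjusted.

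Members were matched on the description. Members, pathway lists and tests were chosen with earlier results of these data known. No model over samples could be fitted. An upper bound on each adjusted p came from Benjamini-Hochberg adjustment of the authors' edgeR p-values over all 38095 reference genes, and was under 0.05 for 9 of 11 members in pwo1 and 25 of 26 in crwn1 crwn2 (all listed genes: 76.3% and 82.8%). RefSeq's TAIR10.1 gave names, gene order and sequences, and 1236 of 1239 and 1933 of 1935 identifiers matched. No coordinates of the tables were used with it. Coding sequences were aligned globally with Biopython 1.88, against the 6 P450 genes sharing most 12-base words. Named genes were members in both tables, at 2-fold or more, or in a pathway list, and up to 4 listed partners per list and table. Other members were named to complete a family. The planned protein comparison was made on coding bases instead.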

Additional observations from a re-analysis of the deposited data

How the results depend on the processing

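Cuffdiff fold changes kept the sign of all 37 member values and the counts of 6 higher and 5 lower in pwo1 and 20 and 6 in crwn1 crwn2. With p under 0.001 in both tools, 8 members stayed in pwo1 and 24 in crwn1 crwn2. A 2-fold threshold left 6 members in pwo1, 2 of them lower, and 17 in crwn1 crwn2, 3 of them lower, by its own construction. Requiring a CYP name in the description left 5 in pwo1 (2 higher, 3 lower) and 11 in crwn1 crwn2 (7 higher), since fewer rows match. Among alternatives added after seeing the data, 6 members with at least 90% identity to another P450 over their whole coding sequence were left out. This left 3 lower in pwo1, and 16 higher and 6 lower in crwn1 crwn2. The riser CYP76C6 was kept, because its 92.3% identity to CYP76C5 covers only the 1107 coding bases of that shorter gene. Adding the P450 genes with other descriptions gave 14 for pwo1 and 30 for crwn1 crwn2. No paired analysis was possible because the tables hold comparisons and no columns per replicate. Leaving out replicates was not possible for the same reason.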
